A study of Mus musculus with 6 samples.

Results

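The genes described here are the transcriptional coactivators YAP (Yap1) and TAZ (Wwtr1), the TEAD factors Tead1 and Tead3, and the targets and regulators Ccn1, Ccn2, Ankrd1, Amotl2, Lats2 and Ajuba. They were chosen by gene name, and all 10 were found among the 14003 genes of the deposited table. The libraries came from wild-type cells labelled MC3T3-E1, a mouse calvarial line of preosteoblasts. The series holds 3 untreated control libraries and 3 libraries of cells given 200 µM sulfasalazine, an anti-inflammatory drug, for 24 h. The labels call the controls untreated, name no vehicle and give 1 batch for all libraries. They leave unsaid if replicates are separate cultures, so p-values measure only the spread between these libraries, which may be technical.

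YAP and TAZ carry no DNA-binding domain of their own and act on genes mainly by binding TEAD proteins. The Hippo kinases phosphorylate them: MST kinases activate LATS kinases, and LATS-phosphorylated YAP and TAZ are held in the cytoplasm or degraded. Stiff surroundings, cell spreading and actin tension favour nuclear YAP and TAZ, and in bone-forming cells both have been studied as links between mechanical load and differentiation. RNA levels say nothing about this phosphorylation or localisation.

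On GRCm38, in GENCODE M21, the protein-coding genes lie at chr9:7931999-8004596 (Yap1, minus strand), chr3:57455649-57575910 (Wwtr1, minus), chr7:112679318-112906807 (Tead1, plus), chr17:28331671-28350817 (Tead3, minus) and chr3:145646976-145649981 (Ccn1, minus). The others lie at chr10:24595442-24598683 (Ccn2, plus), chr19:36111961-36120099 (Ankrd1, minus), chr9:102716672-102733418 (Amotl2, plus), chr14:57689662-57758388 (Lats2, minus) and chr14:54567472-54577558 (Ajuba, minus).

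The promoters of these genes were read from RefSeq (GRCm38.p6), as the 250 bases before each listed start. Entries were present for 8 of the 10 genes, in 12 windows; Tead1 and Ccn2 were not matched. The core of the TEAD site, GGAATG, was searched on both strands, so that it also appears as CATTCC. It lay in windows of 7 of the 8 genes (9 of 12 windows), and in 12.6% of all 32851 windows of that length. The windows are not all separate sequences: those of Wwtr1 largely overlap, and their single word is counted in both. Some windows of Tead3 overlap in part. The genes were chosen as YAP/TEAD factors and targets, and the share of all windows counts windows and not genes. These shares are therefore no test of enrichment. The AP-1 site, TGANTCA, was found in none of the 12 windows and in 6.75% of all windows. A match is a string of letters and not a measured binding site. The 30-base surroundings are shown because the genes that carry the word went different ways in the comparison below; they are written 5′ to 3′ on the gene's own strand, with the word in capitals.
Ankrd1, chr19:36119950-36119979, minus strand, 123 bases before the start: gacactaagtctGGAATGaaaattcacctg
Ankrd1, chr19:36120037-36120066, minus strand, 210 bases before the start: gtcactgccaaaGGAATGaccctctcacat
Amotl2, chr9:102717727-102717756, plus strand, 65 bases before the start: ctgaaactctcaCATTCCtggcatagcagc
Wwtr1, chr3:57576029-57576058, minus strand, 136 bases before the start: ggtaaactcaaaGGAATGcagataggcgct
Yap1, chr9:8004720-8004749, minus strand, 141 bases before the start: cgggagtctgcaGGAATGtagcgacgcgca
Tead3, chr17:28350697-28350726, minus strand, 114 bases before the start: gctCATTCCgtaCATTCCggccatccccct

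The Tead3 stretch holds the word as a tandem pair separated by a short spacer. All 250 bases of the Ankrd1 window and 136 bases of the Amotl2 window are annotated as untranslated exon in GENCODE M21. In the Tead3 window that holds the pair, 217 of the 250 bases lie in exons, 209 of them untranslated. For Ajuba, with a pair of words, and Ccn1, with a single word, the window before the start lay outside every GENCODE exon and is given whole. Ajuba fell with sulfasalazine and Ccn1 did not pass the test.
Ajuba, chr14:54577662-54577911, minus strand: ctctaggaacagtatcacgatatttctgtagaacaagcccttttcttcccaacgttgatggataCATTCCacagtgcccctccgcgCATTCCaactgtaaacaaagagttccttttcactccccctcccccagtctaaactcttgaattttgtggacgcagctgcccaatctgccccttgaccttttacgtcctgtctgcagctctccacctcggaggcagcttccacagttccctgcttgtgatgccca
Ccn1, chr3:145649986-145650235, minus strand: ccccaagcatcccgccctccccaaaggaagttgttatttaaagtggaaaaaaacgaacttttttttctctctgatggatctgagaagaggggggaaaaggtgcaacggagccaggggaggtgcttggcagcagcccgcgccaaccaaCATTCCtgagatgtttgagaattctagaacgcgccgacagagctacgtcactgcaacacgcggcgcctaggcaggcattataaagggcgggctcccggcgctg

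Depth was 15980936 to 21579133 reads on genes per library, as recovered from the deposited values. Of the 12 osteoblast markers listed, 7 were in the table, and Col1a1, Sp7, Bglap and Phex had means below 1 FPKM (fragments scaled to gene length and to library total), Col1a1 lying between 0.0561 and 0.651 FPKM in the controls. Runx2 stood at 20.9 to 24.9 FPKM, Sparc at 10.0 to 43.6 FPKM and Spp1 at 1510 to 2080 FPKM in the controls. The epithelial keratin genes Krt8, Krt18, Krt19 and Krt7 stood at 242 to 774 FPKM in the controls, whereas Cdh1 of the same list lay at 5.23 to 7.44 FPKM and Krt5 and Krt14 below 1 FPKM. The low Col1a1, Sp7 and Bglap and the keratin levels go against the preosteoblast label, while Runx2, Sparc and Spp1 were present. MC3T3-E1 is used here as the name the labels give. The 2 muscle markers with values, Des and Acta1, stayed below 1 FPKM in every library. The summed epithelial list ranged from 1530 to 1730 FPKM untreated and from 1970 to 2210 FPKM treated, and the summed osteoblast list, nearly all of it Spp1, from 1550 to 2140 and from 889 to 1110 FPKM. The epithelial genes went different ways: Krt8 ranged from 260 to 324 FPKM untreated and 839 to 953 FPKM treated, and Krt18 from 654 to 774 and 844 to 961 FPKM. Krt19 ranged from 308 to 394 FPKM untreated and 105 to 186 FPKM treated, and Krt7 from 242 to 273 and 86.8 to 123 FPKM. Mitochondrial genes took 1.47% to 2.21% of reads in controls and 3.72% to 3.8% with sulfasalazine. The part of these differences in the results was not tested. Control replicate 3, the shallowest library, scored -42.6 on the first principal component, against -65.3 and -63.2 for the other controls and 54.1 to 59.2 for the sulfasalazine libraries. It was the control nearest to the sulfasalazine mean for 54.0% of tested genes, and for 4 of the 10 genes here: Wwtr1, Tead1, Ankrd1 and Lats2.

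Sulfasalazine-treated cells had more Ccn2 and Yap1 RNA and less Ankrd1, Tead1, Amotl2, Ajuba, Lats2 and Wwtr1 RNA than untreated cells. Canonical YAP/TEAD targets moved apart: the mean Ccn2 level was 22.4-fold higher, the mean Ankrd1 level 5.80-fold lower, and Ccn1 did not pass the test. All 10 genes passed the filter of 1 FPKM in at least 3 libraries and were tested with limma on log2(FPKM + 1), adjusted by Benjamini-Hochberg over 10338 genes. Of the 10, 2 were called higher and 6 lower at an adjusted p under 0.05. Over all tested genes, 66.5% were called, 37.2% as higher and 29.3% as lower, so a call as such is common in this comparison. The median log2 fold change of the 10 genes was -0.63, and that of all tested genes was 0.08. The groups did not overlap for 9 of the 10 genes, and for 71.4% of all tested genes.

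**Figure D1:**
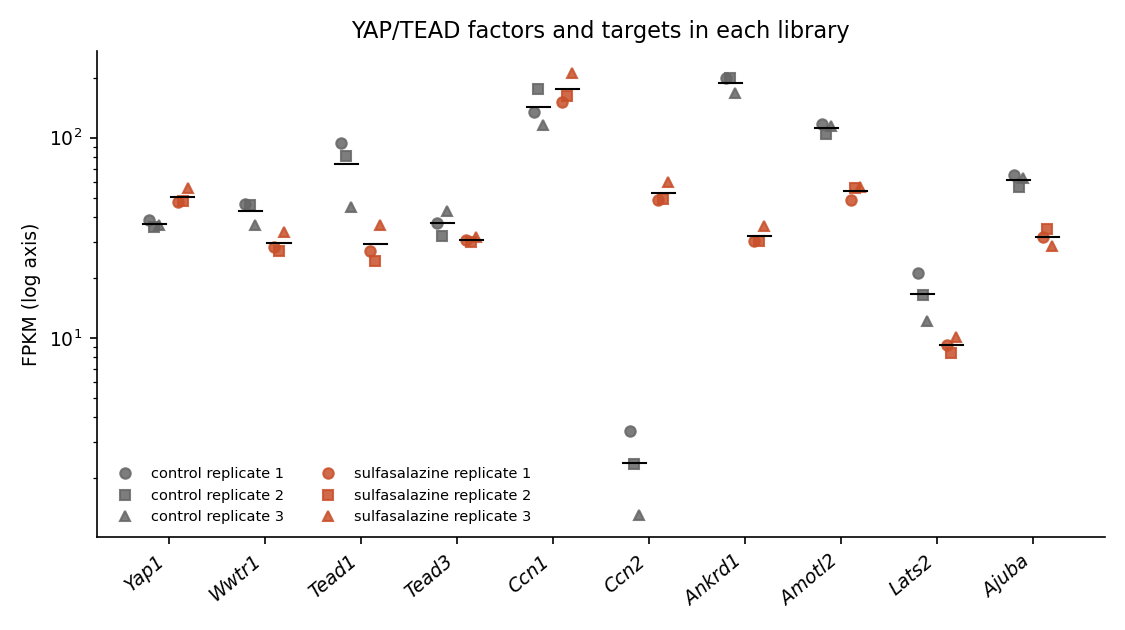
FPKM on a log axis (vertical) of each of the 10 genes in each library; grey marks are control and orange marks sulfasalazine libraries, shapes give the replicate number and black bars are group means. Ccn2 sits between 1.30 and 3.44 FPKM in controls and between 48.8 and 60.3 FPKM with sulfasalazine, while Ankrd1 lies at 167 FPKM or more in controls and at 36.4 FPKM or less with sulfasalazine.

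The coactivator genes moved in opposite directions. Yap1 measured 39.0, 35.7 and 36.6 FPKM in control replicates 1, 2 and 3, against 47.8, 48.3 and 56.0 FPKM in sulfasalazine replicates 1, 2 and 3. Every sulfasalazine library was above every control, and the controls lay close together. The rise was 0.44 log2 units (SE 0.11; adjusted p = 0.0086, limma). In the authors' deposited table, Yap1 has a log2 fold change of 0.35 with an adjusted p of 0.066, so the 2 analyses fall on different sides of the threshold. Wwtr1, which encodes TAZ, the YAP paralog, measured 46.5, 46.3 and 36.6 FPKM in control replicates against 28.3, 27.2 and 33.9 FPKM in treated replicates. Its groups did not overlap, but replicate 3 of each group approached the other. Wwtr1 fell by 0.52 log2 units (SE 0.14; adjusted p = 0.013, limma). The call was lost without sulfasalazine replicate 1 (log2 fold change -0.49, adjusted p = 0.053). Sulfasalazine replicate 2 had the same effect when left out (-0.46, adjusted p = 0.058).

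The balance of the coactivators was compared within each library as the log2 ratio of Yap1 to Wwtr1 FPKM. The ratio was -0.25, -0.38 and 0.00 in the controls and 0.75, 0.83 and 0.73 with sulfasalazine. All sulfasalazine ratios were above all control ratios, and the group means were -0.21 ± 0.19 and 0.77 ± 0.05 (SD, n = 3 per group). The difference of 0.98 gave p = 0.1 in an exact two-sided permutation test (0.125 adjusted over 5 such tests on FPKM), and 0.1 is the smallest value that 3 against 3 libraries allow. Gene length cancels from this difference but not from the ratio itself. With the full GENCODE exonic length of each gene, Wwtr1 was the more abundant RNA in both groups, at log2 ratios of -2.33 ± 0.19 and -1.35 ± 0.05 (SD, n = 3 per group).

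TEAD proteins provide the DNA contact. Tead1 measured 94.6, 81.3 and 45.3 FPKM in control replicates against 27.2, 24.1 and 36.7 FPKM in treated replicates. The groups did not overlap, although control replicate 3 lay closer to the treated libraries than to the other controls. Tead1 fell by 1.26 log2 units (SE 0.27; adjusted p = 0.0039, limma), with a log2 fold change of -1.57 without control replicate 3. Tead3 measured 37.4, 32.1 and 43.0 FPKM in control replicates against 30.9, 30.1 and 31.9 FPKM in treated replicates. Its groups did not overlap, yet the gap between them was far smaller than the range of the controls. Its log2 fold change of -0.26 (SE 0.13) did not pass (limma adjusted p = 0.11). Scaling by median of ratios made it pass as lower, at -0.38 (adjusted p = 0.032, limma). Leaving out control replicate 2 gave -0.36 (adjusted p = 0.045, limma).

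The share of each paralog in the summed FPKM of Tead1, Tead2, Tead3 and Tead4 was computed per library. The shares are parts of the same sum, so a rise of any paralog lowers the shares of the others. The Tead1 share was 57.9%, 54.4% and 29.3% in the controls and 11.4%, 10.6% and 14.2% with sulfasalazine. It was lower in every treated library, with control replicate 3 lying between the other controls and the treated libraries. The mean was 47.2 ± 15.6% in controls and 12.1 ± 1.9% with sulfasalazine (SD, n = 3 per group), a difference of -35.1 percentage points (exact permutation p = 0.1, the smallest possible, and 0.125 adjusted over the same 5 tests). Without control replicate 3 the difference was -44.1 points. Tead2, known as a TEAD gene of early embryonic and neural tissue, moved the other way: its share was 9.6%, 11.3% and 28.7% in controls and 66.1%, 65.8% and 63.6% with sulfasalazine. Tead2 measured 15.7, 16.9 and 44.5 FPKM in control replicates against 158, 150 and 164 FPKM in treated replicates, a rise of 2.73 log2 units (SE 0.34; adjusted p = 0.00022, limma). The summed FPKM of the TEAD genes was 149 to 163 in controls and 228 to 257 with sulfasalazine. By full exonic length the sum rose less, from 40.3 to 43.4 in controls to 51.8 to 58.4 with sulfasalazine. With GENCODE exonic lengths, the Tead1 share was 43.9 ± 14.3% in controls and 13.3 ± 2.1% with sulfasalazine, and the Tead2 share 11.3 ± 7.4% and 52.3 ± 1.3% (SD, n = 3 per group).

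**Figure D2:**
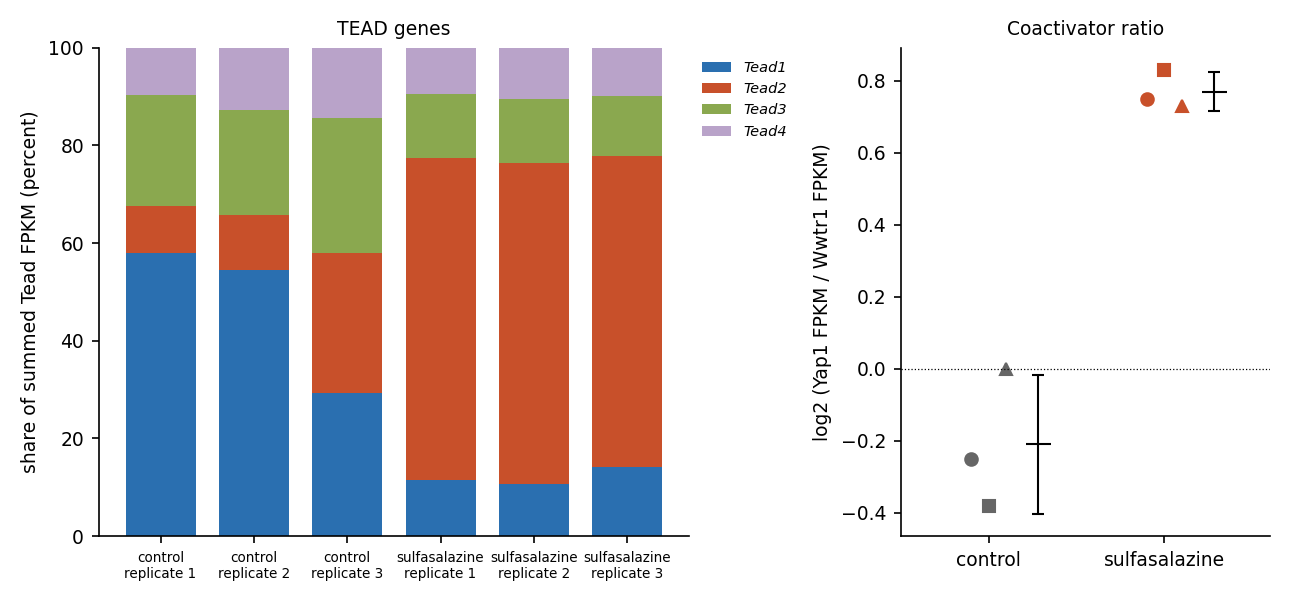
Left, the share of Tead1, Tead2, Tead3 and Tead4 in their summed FPKM (percent, vertical) for each library (horizontal); right, the log2 ratio of Yap1 to Wwtr1 FPKM per library (points, shapes as replicate numbers 1 circle, 2 square and 3 triangle) with group mean and SD (black). Tead1 takes 29.3% or more in every control and 14.2% or less with sulfasalazine, and the coactivator ratio is 0.00 or lower in controls and 0.73 or higher with sulfasalazine.

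Among the target genes, Ccn2 and Ccn1 encode secreted matricellular proteins of the CCN family, long used as readouts of YAP activity. Ccn2, formerly Ctgf, measured 3.44, 2.34 and 1.30 FPKM in control replicates against 48.8, 49.2 and 60.3 FPKM in treated replicates, resting on 37 to 120 and 1753 to 2075 reads. It was the lowest of the 10 genes in every control and rose with no overlap between groups. The log2 fold change on log2(FPKM + 1) was 4.05 (SE 0.24, limma adjusted p = 8.9e-06), and 4.56 by limma voom on the recovered reads, where low values are compressed less. Of the exonic bases of Ccn2, 23.2% lie in the annotated gene Gm15270 on the opposite strand, and no source used here says if counting kept strands apart. Ccn1, formerly Cyr61, measured 134, 175 and 116 FPKM in control replicates against 151, 161 and 211 FPKM in treated replicates. These ranges overlapped, with control replicate 2 above sulfasalazine replicates 1 and 2. Its log2 fold change was 0.30 (SE 0.18, limma adjusted p = 0.18), and it passed in none of the 14 alternative analyses (adjusted p = 0.055 to 0.48).

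Ankrd1 encodes a nuclear ankyrin-repeat protein of striated muscle that is also a common YAP target. It measured 199, 198 and 167 FPKM in control replicates against 30.3, 30.5 and 36.4 FPKM in treated replicates. The controls were wholly above the treated libraries, and the groups were each narrow. Ankrd1 fell by 2.50 log2 units (SE 0.12; adjusted p = 4.7e-06, limma). Leaving out any 1 library gave -2.59 to -2.46.

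Amotl2, Lats2 and Ajuba act back on the pathway, and all of them fell. Amotl2 encodes an angiomotin that binds YAP at junctions and actin, and is itself a YAP target. It measured 117, 105 and 115 FPKM in control replicates against 49.1, 56.4 and 56.6 FPKM in treated replicates. The groups were well separated, and Amotl2 fell by 1.05 log2 units (SE 0.11; adjusted p = 7.4e-05, limma). Lats2, the feedback-induced kinase that phosphorylates YAP and TAZ, measured 21.1, 16.4 and 12.1 FPKM in control replicates against 9.17, 8.41 and 10.1 FPKM in treated replicates. Its control values were spread widely, with control replicate 3 just above the treated libraries. Lats2 fell by 0.75 log2 units (SE 0.20; adjusted p = 0.012, limma), with a log2 fold change of -0.94 without control replicate 3 and -0.57 without control replicate 1. Of its exonic bases 42.4% also belong to Gm49361 on the same strand, so its reads are uncertain. Ajuba, a LIM-domain scaffold that restrains LATS kinases, measured 65.3, 56.7 and 63.1 FPKM in control replicates against 31.8, 35.0 and 28.8 FPKM in treated replicates. No treated library reached any control, and Ajuba fell by 0.93 log2 units (SE 0.12; adjusted p = 0.00023, limma).

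In controls the order of levels by mean FPKM was Ankrd1, Ccn1, Amotl2, Tead1, Ajuba, Wwtr1, Tead3, Yap1, Lats2 and Ccn2. Neighbours overlapped in their library ranges from Ankrd1 to Amotl2, between Tead1 and Ajuba, and from Wwtr1 to Yap1. The order of these neighbours is therefore not separated, although Ankrd1 lay above Amotl2 in every pair of control libraries. Tead1 in control replicate 3, at 45.3 FPKM, also lay within the control range of Wwtr1. Amotl2 lay above Tead1, and Ajuba above Wwtr1, in every pair of control libraries. Lats2, at 16.5 ± 4.48 FPKM, and Ccn2, at 2.36 ± 1.07 FPKM (SD, n = 3), lay below the others with no overlap. With sulfasalazine, Ccn1 led at 174 ± 32.1 FPKM and Lats2 was lowest at 9.22 ± 0.830 FPKM (SD, n = 3). Ccn2, at 52.8 ± 6.55 FPKM, then stood beside Amotl2, at 54.0 ± 4.31 FPKM, and Yap1, at 50.7 ± 4.60 FPKM (SD, n = 3). These levels depend on the gene length used. The length behind the FPKM was 2052 bases for Yap1, whose GENCODE exons cover 9257 bases, and 2019 bases for Ccn1, which equals its exons. By full exonic length Yap1 averaged 8.22 ± 0.375 FPKM untreated and 11.2 ± 1.02 FPKM treated (SD, n = 3). On that scale Ccn1, at 142 ± 30.4 FPKM, and Ankrd1, at 121 ± 11.8 FPKM (SD, n = 3), led in controls with overlapping spreads.

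Other targets of a published YAP/TAZ signature fell more often than they rose. Of 17 listed besides the genes above, 16 were in the table and 10 passed the filter; 5 fell, 1 rose and 4 did not pass, with a median log2 fold change of -0.65, beside 29.3% lower, 37.2% higher and a median of 0.08 over all tested genes. Axl, a receptor tyrosine kinase gene, measured 768, 679 and 681 FPKM in control replicates against 146, 142 and 159 FPKM in treated replicates, and fell by 2.24 log2 units (SE 0.11; adjusted p = 4.4e-06, limma). Its groups were far apart, as for Ankrd1. Crim1, a transmembrane regulator of BMP factors, fell, with means of 105 ± 36.3 FPKM untreated and 34.9 ± 4.37 FPKM treated (SD, n = 3 in each group). Gadd45a, a stress and growth arrest gene, fell, with means of 489 ± 75.5 FPKM untreated and 179 ± 9.29 FPKM treated; 19.1% of its exonic bases lie in E230016M11Rik on the opposite strand. F3, encoding tissue factor, fell, with means of 35.8 ± 10.7 FPKM untreated and 14.1 ± 3.9 FPKM treated. Myof, encoding the membrane repair protein myoferlin, went down from 198 ± 52.3 to 102 ± 3.51 FPKM. The rise was that of Nuak2, an AMPK-related kinase gene, from 6.11 ± 2.51 to 15.7 ± 3.06 FPKM (SD, n = 3 per group). Without control replicate 1 the counts were 2 higher and 5 lower.

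Of 29 components of the Hippo pathway listed besides the 10 main genes, 26 were tested. Of these, 7 rose, 8 fell and 11 did not pass (median log2 fold change -0.16). Ptpn14, which did not pass, is counted both here and among the signature targets. Over all tested genes 37.2% were called higher and 29.3% lower, with a median of 0.08. In this fit the share of calls in the list is not above that background. With control replicate 3 left out, 8 of the 26 rose and 13 fell, beside 4206 higher and 3527 lower of all 10338 tested genes. The side of the background on which the list fell thus depended on that library. No test of the list against that background was run. Lats1, the paralog of Lats2, was among the falls, from 25.4 ± 9.82 to 12.3 ± 1.89 FPKM (SD, n = 3 per group), but its groups overlapped, with 14.2 FPKM in control replicate 3 and 14.3 FPKM in sulfasalazine replicate 3. The MST kinase genes Stk3 and Stk4 and the adaptor Sav1 did not pass (adjusted p = 0.16, 0.47 and 0.55, limma). These and Lats1 were chosen as the core cassette after their values were seen. Of the exonic bases of Sav1, 25.4% lie in other genes, mainly Atl1 on the opposite strand. The angiomotins diverged: Amotl1 measured 73.8, 68.4 and 50.4 FPKM in control replicates against 2.81, 2.33 and 1.40 FPKM in treated replicates, and fell by 4.37 log2 units (SE 0.22; adjusted p = 5.3e-06, limma). Amotl1 fell, as did Amotl2, whereas Amot, the founding member, rose, with means of 1.44 ± 0.0809 FPKM untreated and 5.30 ± 0.947 FPKM treated (SD, n = 3 per group). Rassf1, a scaffold that binds MST kinases, fell, with means of 97.6 ± 4.11 FPKM untreated and 12.9 ± 0.876 FPKM treated; 42.7% of its exonic bases lie in Gm9917 on the opposite strand. Nf2, encoding merlin, an upstream activator of LATS kinases, rose, with means of 41.0 ± 4.63 FPKM untreated and 121 ± 5.05 FPKM treated. Strn3, a striatin of the phosphatase complex that opposes MST kinases, fell, with means of 36.7 ± 10.8 FPKM untreated and 12.4 ± 2.39 FPKM treated (SD, n = 3 per group). The remaining gene of largest change was Tead2, described above.

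The last list held SRF, a factor that shares several targets with YAP and also reads actin tension, its cofactor genes Mrtfa and Mrtfb, and actin genes and SRF targets. Of 15 listed, 14 were in the table and 11 were tested; 7 rose, 1 fell and 3 did not pass (median log2 fold change 0.68), beside 37.2% higher, 29.3% lower and a median of 0.08 over all tested genes. Under quantile normalization 5 of the 11 passed as higher. Tagln, listed but short of the filter and not tested, averaged 1.18 ± 0.44 FPKM untreated and 0.232 ± 0.115 FPKM treated, with no overlap. Acta2 and Cnn1, also not tested, averaged 0.15 FPKM or less in both groups. Srf and Mrtfa were among those that did not pass (adjusted p = 0.84 and 0.66, limma), and Mrtfb was among the rises (adjusted p = 0.047, limma); these genes were chosen after their values were seen. Cnn2, a calponin gene, rose, with means of 51.4 ± 4.65 FPKM untreated and 168 ± 7.69 FPKM treated (SD, n = 3 per group). Actg1, encoding cytoplasmic gamma actin, rose, with means of 662 ± 232 FPKM untreated and 1740 ± 201 FPKM treated; other genes hold 37.4% of its 50-base words. Actb, encoding beta actin, stood at 2590 ± 361 and 4320 ± 87.3 FPKM (limma adjusted p = 0.0057), a call lost under quantile normalization (adjusted p = 0.080). Thbs1, encoding the matrix protein thrombospondin 1, rose, with means of 35.4 ± 7.78 FPKM untreated and 81.1 ± 27.4 FPKM treated. The crosslinker gene Flna went up from 375 ± 52.9 to 612 ± 32.1 FPKM. The fall was that of the tropomyosin gene Tpm1, from 727 ± 36.4 to 425 ± 16.6 FPKM (SD, n = 3 per group). In these bulk libraries, fewer cells expressing a gene and less RNA per cell cannot be told apart.

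**Figure D3:**
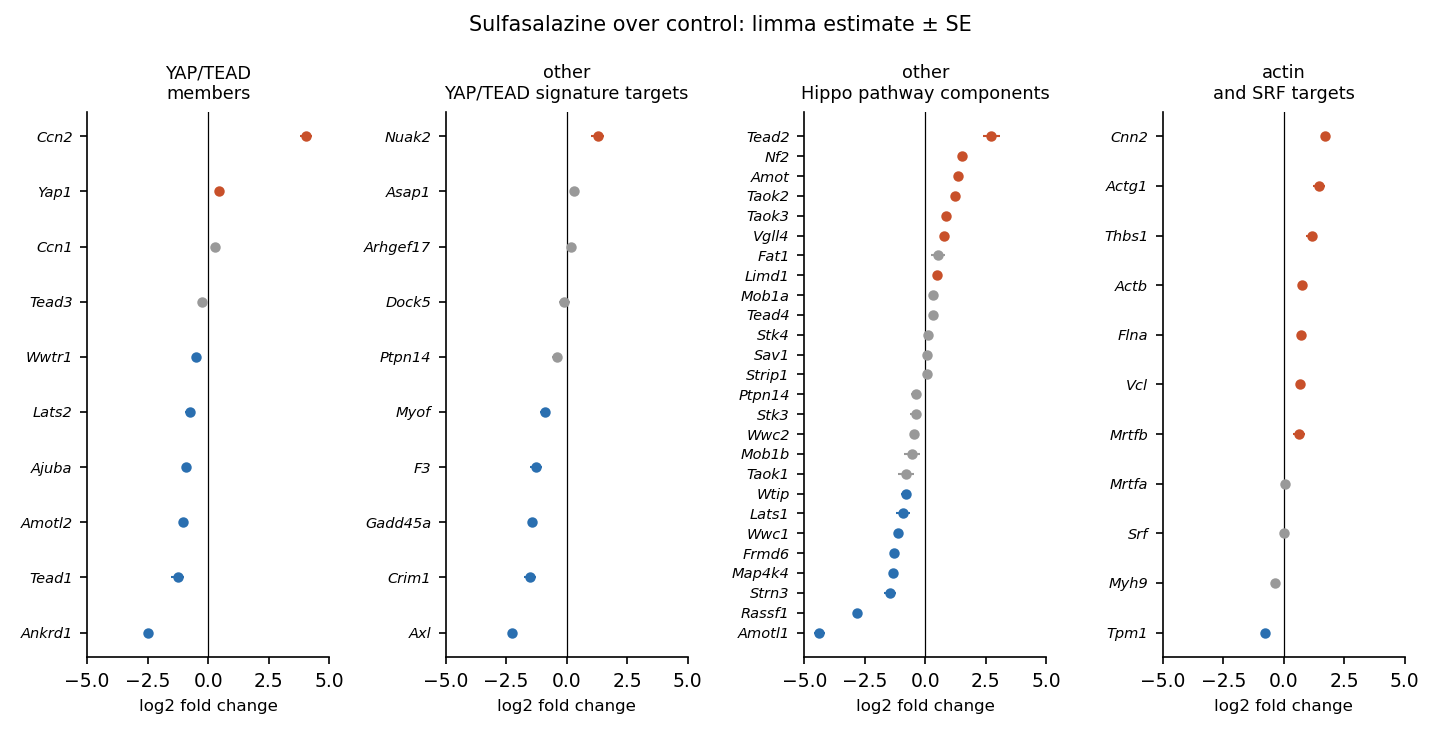
log2 fold change of sulfasalazine over control (horizontal, limma on log2(FPKM + 1), bars ± SE) for the tested genes of each list (vertical); orange passed as higher, blue passed as lower and grey did not pass at an adjusted p under 0.05. The 10 genes run from -2.50 for Ankrd1 to 4.05 for Ccn2, the Hippo components from -4.37 for Amotl1 to 2.73 for Tead2.

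The genes whose log2(FPKM + 1) values followed Yap1 most closely over the 6 libraries were Lss (Pearson r = 0.9995), Mterf2 (0.9972) and Mrps9 (0.9963). For Ccn2 they were Idh1 (0.9989), Akr1c13 (0.9989) and Snx14 (0.9986). These are descriptions of 6 points in 2 groups that share libraries, in a table where most tested genes differ between the groups.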

How the data were processed

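Total RNA of 6 libraries was sequenced as paired Illumina reads, per the labels' protocols. The submitters' processing notes list the build mm39 and the tools HTSeq 0.13.5, fastp 0.23.0, edgeR and HISAT2 2.2.1, without their roles. The 13836 of 13982 matched genes with GENCODE M21 start and end place the table on GRCm38. The authors deposited FPKM per library, used for all tests, a library-adjusted signal per library, and their log2 fold change and p-value per gene. A second deposited table repeats 4891 of its rows and gave no values.

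Reads were recovered as the whole numbers, within 0.001, that the FPKM of all 14003 genes are multiples of; for 768 genes with more than 1 solution the set nearest the deposited signal was taken. They give depth (15980936 to 21579133 reads) and counts per gene, and depth limits only the lowest values.

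Groups came from the sample titles. limma 3.58.1 in R 4.3.3 (eBayes with trend, two-sided, Benjamini-Hochberg) was run on log2(FPKM + 1) for the 10338 genes reaching 1 FPKM in 3 or more libraries, which understates changes of low genes. Ratios and shares used exact permutation tests (scipy 1.17.1). Shared sequence was checked as 50-base words and exonic overlap in GENCODE M21. The members, lists and tests were chosen with earlier results of these data known. Named genes were the 10 members, up to 6 called genes per list with the largest change and a group mean of at least 5 FPKM, and the 3 genes most like Yap1 and Ccn2. The alternatives were pseudocount, filter, scaling, trend, replicate block and leaving out each library; limma voom on recovered reads and GENCODE lengths were added after seeing the data.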

Additional observations from a re-analysis of the deposited data

How the results depend on the processing

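No direction of the 10 genes reversed in the 14 alternative analyses, and apart from Wwtr1 and Tead3, described above, each of them stayed on its side of the threshold. The count of the 10 genes was 2 higher throughout and 5 to 7 lower. Median-of-ratios scaling moved the median of all tested genes by -0.12 on the log2 scale and gave 3437 genes higher and 3530 lower, against 3846 and 3032. Other signature targets called higher numbered 2 with no filter, where 16 were tested, and 1 to 2 with a library left out. Genes of the actin and SRF list called higher numbered 7, against 5 under quantile normalization, 6 with no filter (14 tested) and 6 under median-of-ratios scaling or with the replicate block. Those called lower numbered 2 with no filter and 2 under median-of-ratios scaling, and 1 to 2 with a library left out. Hippo components called lower numbered 8, and 7 to 13 with a library left out, where 13 came from leaving out control replicate 3. They numbered 12 under quantile normalization, 11 under median-of-ratios scaling and 10 by limma voom. All tested genes called lower numbered 3527 without control replicate 3, and 3523, 3530 and 3021 in those settings. The cause was not tested. No pairing by replicate number was apparent. Deviations of same-numbered libraries correlated at 0.04, -0.19 and -0.17, and those of different-numbered libraries at -0.14 to 0.21. Because the deviations were taken from means of 3 libraries, these values cannot exclude pairing. With the replicate block the counts were 3649 higher and 2771 lower over all genes, and 2 and 6 for the 10 genes. For the ratio and the share, leaving out a library gave 0.90 to 1.09 and -44.1 to -29.8, where the smallest possible exact p is 0.2.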

Other observations

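The length that the deposited FPKM imply for a gene lay within 1 base of the mean length of its GENCODE M21 transcripts for 94.2% of 13982 genes, and for 9 of the 10 genes described here. Short partial transcripts lower that mean: Tead2, with 17 annotated transcripts, had a length of 868 bases against 4788 exonic bases, which raises its FPKM beside that of other genes. Over all genes the median length was 42.6% of the exonic length, and it was 22.2% for Yap1, 96.6% for Wwtr1 and 24.8% for Tead1. The ratio of the FPKM of 1 gene between libraries is not touched by this, since its length is the same in all of them. The filter and the log2(FPKM + 1) used in the tests do depend on the length, most for genes at low FPKM.

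Of the signature targets that did not pass the filter, Tgfb2, encoding a TGF-beta ligand, averaged 0.373 ± 0.131 FPKM untreated and 0.0631 ± 0.0439 FPKM treated (SD, n = 3 per group). Nt5e, encoding the ectonucleotidase CD73, stood at 0.0360 ± 0.0470 and 0.515 ± 0.108 FPKM. Fjx1 stood at 0.191 ± 0.0947 FPKM untreated and 0.0394 ± 0.0408 FPKM treated, also without overlap. These genes were chosen after their values were seen and did not enter the fit of filtered genes. With no filter, 2 of the 16 signature targets were called higher and 7 lower.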
